A study of Mus musculus with 8 samples.

Results

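The expression difference between reporter-positive and reporter-negative cells of the gastrulating mouse embryo was compared between embryonic day (E) 6.5 and E7.5, to show which genes lost, gained or reversed it. The genes considered were all 17097 annotated genes of the array, that is every symbol named by a probe set with a single symbol, and 11706 of them passed the filter on low values and were tested. Cells came from Mesp1-rtTA/Teto-H2B-GFP embryos. In these, Mesp1 sequences drive a reverse tetracycline-controlled transactivator (rtTA), through which a nuclear histone-GFP fusion is switched on. The 4 groups, of 2 arrays each, were GFP+ and GFP- cells at E6.5 and GFP+ and GFP- cells at E7.5. All 4 groups carried the same transgenes, and every array was made from 50 sorted living cells whose cDNA was amplified for 25 cycles. GFP+ marks activity of the transgenic system, and a histone-bound GFP can outlast the transcription that produced it. Each design was repeated in 2 biological samples, numbered replicate 1 and replicate 2. How many embryos were pooled for a sort, and whether arrays of the same number came from the same litter, was not given in the sources used here.

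At gastrulation, epiblast cells enter the primitive streak, lose epithelial junctions and leave as mesenchymal mesoderm. Wnt, Nodal and FGF signals maintain the streak, Snail-family factors repress epithelial genes during the transition, and Mesp1 is switched on transiently in the nascent mesoderm that contributes heart, vessels and cranial muscle. The visceral endoderm, an absorptive epithelium around the epiblast, makes apolipoproteins and serum carrier proteins.

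Promoters of 4 genes are shown because they belong to the gene groups whose fraction difference was lost, and because each carries, in capitals, a match to a motif described with those groups. They are the 250 bases before the annotated start, 5′ to 3′ on the gene's strand, from RefSeq on GRCm38.p6, for Mesp1 at chr7:79793591-79793840 (minus strand), Sp5 at chr2:70474673-70474922 (plus strand), Rab25 at chr3:88548280-88548529 (minus strand) and Krt18 at chr15:102027966-102028215 (plus strand). Capitals mark CTTTGA or its reverse complement, a core bound by TCF/LEF factors of the Wnt pathway, in Mesp1 and Sp5, and CAGGTG or its reverse complement, an E-box bound by Snail-family factors, in Rab25 and Krt18.
Mesp1: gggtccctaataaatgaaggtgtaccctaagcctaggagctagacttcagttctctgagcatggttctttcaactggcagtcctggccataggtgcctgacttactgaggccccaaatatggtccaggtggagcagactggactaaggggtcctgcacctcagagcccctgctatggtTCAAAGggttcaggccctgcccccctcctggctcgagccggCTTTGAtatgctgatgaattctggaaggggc
Sp5: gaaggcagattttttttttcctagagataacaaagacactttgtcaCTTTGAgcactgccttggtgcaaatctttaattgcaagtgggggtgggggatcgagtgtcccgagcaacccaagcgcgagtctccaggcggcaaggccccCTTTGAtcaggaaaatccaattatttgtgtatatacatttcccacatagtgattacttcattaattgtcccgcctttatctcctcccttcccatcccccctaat
Rab25: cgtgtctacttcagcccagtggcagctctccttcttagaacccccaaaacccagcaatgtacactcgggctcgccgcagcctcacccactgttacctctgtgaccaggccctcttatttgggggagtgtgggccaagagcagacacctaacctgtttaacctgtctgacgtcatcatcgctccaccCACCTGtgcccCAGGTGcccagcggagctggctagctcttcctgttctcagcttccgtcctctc
Krt18: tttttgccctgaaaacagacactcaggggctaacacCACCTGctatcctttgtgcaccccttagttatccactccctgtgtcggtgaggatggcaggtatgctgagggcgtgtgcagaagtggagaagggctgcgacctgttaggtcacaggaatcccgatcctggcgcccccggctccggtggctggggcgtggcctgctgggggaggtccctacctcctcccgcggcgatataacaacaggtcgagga
The Mesp1, Sp5 and Rab25 windows each held 2 such matches and the Krt18 window held 1. The Mesp1 window also held 1 CAGGTG, which is left in lower case, so the E-box is not limited to Rab25 and Krt18. A match describes the letters only, and nothing measured here shows a factor bound to it.

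Values are deposited log2 expression values, on which 1 unit is a 2-fold difference. The fraction gap of a gene is its GFP+ value minus its GFP- value at a stage, and the gap change is the gap at E7.5 minus the gap at E6.5, taken within each replicate number. A negative gap change means that the gap shifted toward the GFP- fraction. Array medians were 4.20 to 4.23 in replicate 1 and 4.54 to 4.59 in replicate 2. Arrays divided by replicate number along the leading principal component (36.6% of variance), so each gap was read inside a replicate. In cells measured in bulk, fewer cells of a type and less RNA per cell cannot be told apart, and this holds for every gene below. The number of arrays limits the precision. SE and adjusted p values given with single genes come from a fit with no block, unless the block is named. In that fit the offset between replicates counts as spread, so an SE does not measure how closely the 2 paired gap changes matched.

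The test of the gap change called no gene, which does not show that no gap changed: the fit with no block found few set changes in simulated data (values under processing). In limma with Benjamini-Hochberg adjustment over 11706 genes, 0 genes (0%) passed an adjusted p of 0.05, and 317 genes (2.71%) had an unadjusted p under 0.05, 156 (1.33%) toward GFP+ and 161 (1.38%) toward GFP-. Leaving out replicate 1 of GFP+ E7.5 raised the count in either direction from 317 to 476. With the replicate number as a block, again 0 genes passed, and 761 (6.5%) had an unadjusted p under 0.05. In the simulated data that fit called 35 of 100 genes at a change of 2 and 74 of 100 at a change of 4. With the replicate number as a random block, 1 gene (0.00854%) passed, the apelin receptor gene Aplnr, at an adjusted p of 0.0484 in limma. There 720 genes (6.15%) had an unadjusted p under 0.05. Genes below are therefore described by their values in all arrays, and "lost", "gained", "kept" and "reversed" are names for patterns in these arrays with no test attached.

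A gap was counted as present at a stage when it was at least 1 in size, with the same sign, in both replicates, and as absent when it was under 1 in both. At E6.5 a gap was present in 383 genes (3.27%), with GFP+ higher in 161 (1.38%) and GFP- higher in 222 (1.9%). At E7.5 it was present in 110 genes (0.94%), 45 (0.384%) with GFP+ higher and 65 (0.555%) with GFP- higher. Of the 461 genes with a gap at either stage, 205 lost it (1.75% of the genes tested, 0.863% with GFP+ and 0.888% with GFP- higher at E6.5), 44 gained one (0.376%), 31 kept it (0.265%), 1 reversed it (0.00854%) and 180 could not be placed (1.54%). Genes just inside the limit at E6.5 were Egln3, with a smaller gap of 1.00 where GFP+ was higher, and Atf7ip, at -1.0. Just outside it were Adck2 at 0.99 and Cyct at -0.99. At E7.5 Aplnr lay just inside, at 1.01, and Upk1a just outside, at 1.00 when rounded.

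**Figure D1:**
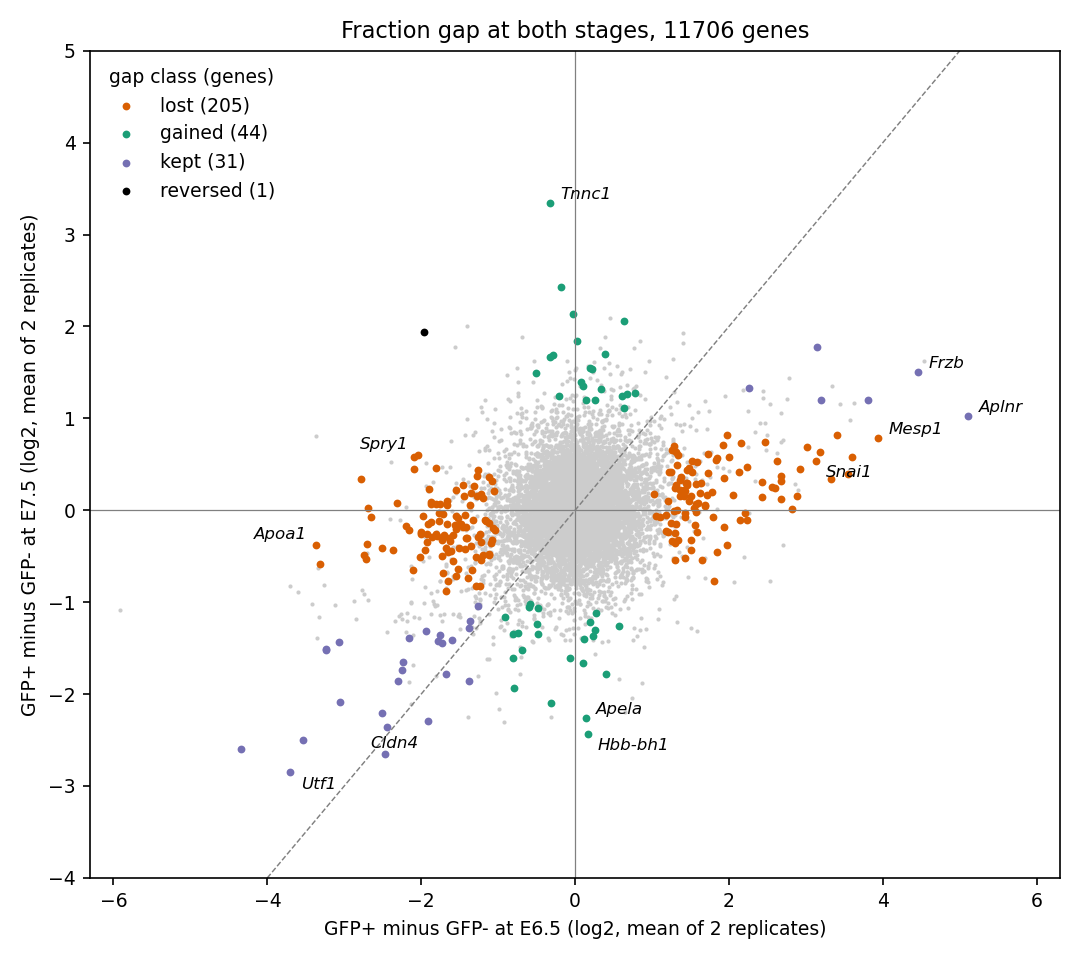
Fraction gap (GFP+ minus GFP-, log2, mean of 2 replicates) at E6.5 on the horizontal axis and at E7.5 on the vertical axis, 1 point for each of 11706 genes. Coloured points are the 205 lost, 44 gained, 31 kept and 1 reversed genes, and grey points are all others. The lost genes spread along the horizontal axis, from Apoa1 at -3.36 to Mesp1 at 3.94, and lie near 0 on the vertical axis. The dashed line marks equal gaps.

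Genes chosen by a wide gap in 1 replicate were also read in the other. A choice by the E6.5 gap favours a wider gap at E6.5 than at E7.5 there as well, wherever gaps differ between stages. The changes that follow for such genes are therefore descriptions and test nothing. The 244 genes with a gap of at least 2 at E6.5 in replicate 1, read in replicate 2 and signed toward the fraction in which they were higher, had a median gap of 1.35 at E6.5 and 0.46 at E7.5. The median change was -0.86 in replicate 2. The 178 genes chosen the same way in replicate 2 had medians in replicate 1 of 1.51 at E6.5 and 0.54 at E7.5, with a median change of -1.15. Genes chosen by their gap at E7.5 gave little in the other replicate: 59 genes chosen in replicate 1 had a median gap at E7.5 of 0.18 in replicate 2, against 0.96 at E6.5. The 178 genes chosen at E7.5 in replicate 2 had medians of 0.10 at E7.5 and 0.28 at E6.5 in replicate 1. Across all genes, which are not independent replicates, gaps of the 2 replicates correlated at Pearson's r = 0.42 at E6.5, 0.07 at E7.5 and 0.13 for the gap change. The standard deviation of the gaps over genes was 0.71 at E6.5 and 0.50 at E7.5 in replicate 1, and 0.62 and 0.66 in replicate 2, so the spread of gaps was smaller at E7.5 only in replicate 1.

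Mesp1, the gene of the reporter, had a smaller gap at E7.5. In GFP+ cells its values were 9.75 and 10.03 at E6.5 and 8.75 and 8.65 at E7.5 (replicates 1 and 2), and in GFP- cells they were 5.64 and 6.26 at E6.5 and 7.76 and 8.06 at E7.5. Both GFP+ arrays lay above both GFP- arrays at each stage, so the labels of the fractions and the gene ran the same way. The gap was 3.94 at E6.5 and 0.79 at E7.5, and the gap change was -3.15 (SE 0.46), -3.13 in replicate 1 and -3.17 in replicate 2. Its limma adjusted p was 0.738, and 0.288 with the replicate block. The E7.5 minus E6.5 difference was -1.19 in GFP+ cells and 1.96 in GFP- cells, so the fractions differed between stages in opposite directions.

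Aplnr, which encodes the receptor for the peptides apelin and Elabela on migrating mesoderm, had the gap change with the smallest p of all genes. Its GFP- values were 3.29 and 3.69 at E6.5, below the filter value of 4.38, and 9.86 and 9.58 at E7.5. GFP+ values were 8.52 and 8.68 at E6.5 and 10.89 and 10.60 at E7.5. GFP+ cells were higher in every pairing, but the gap was 5.11 at E6.5 and 1.02 at E7.5, which places Aplnr among the kept genes at the very edge of the limit. The gap change was -4.09 (SE 0.43; limma adjusted p = 0.285), -4.20 and -3.97 in the replicates. The files hold no background measure, so a difference from a group below 4.38 is uncertain in size. A second Aplnr probe set gave a gap change of -0.87, -0.01 in replicate 1 and -1.74 in replicate 2, and the mean of both gave -2.48.

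**Figure D2:**
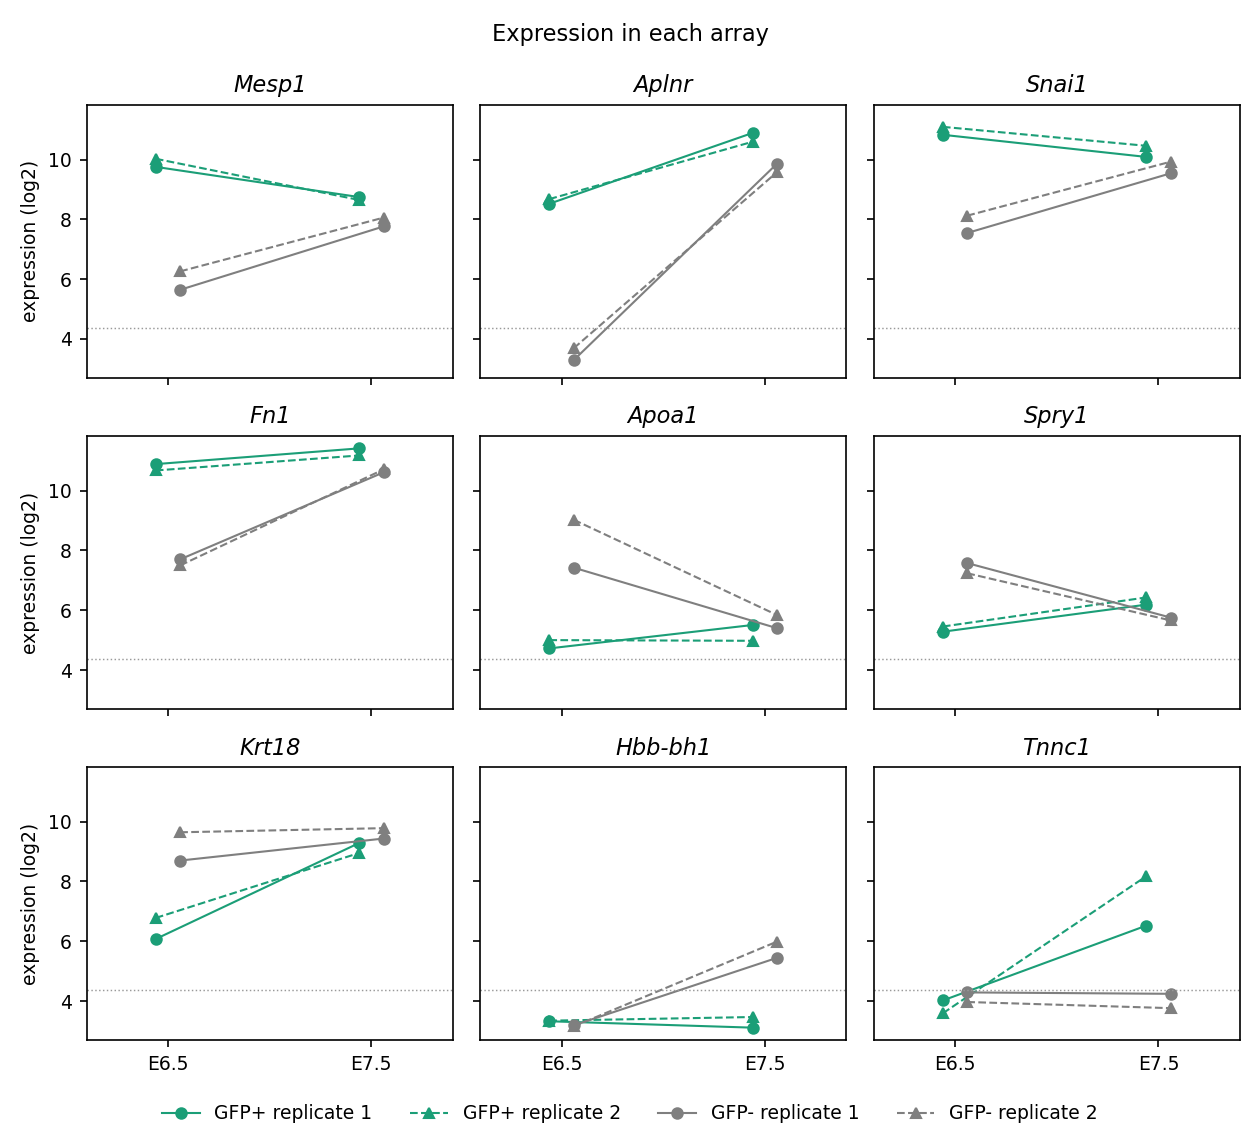
Expression (log2, vertical axis) of 9 genes at E6.5 and E7.5 in each array. Green lines are GFP+ and grey lines GFP- cells, circles with solid lines replicate 1, triangles with dashed lines replicate 2, and the dotted line the filter value of 4.38. For Mesp1, Aplnr, Snai1 and Fn1 the grey lines climb toward the green ones. For Hbb-bh1 and Tnnc1 the lines part at E7.5.

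Among genes of the primitive streak and nascent mesoderm, most gap changes ran toward GFP-. Of 23 measured members, 9 had a gap change of at least 1 toward GFP- in both replicates and 1 (Cer1) toward GFP+, against 190 (1.62%) and 200 (1.71%) of all genes tested. A gap change with the same sign in both replicates was seen toward GFP- in 17 members and toward GFP+ in 4, against 3284 (28.1%) and 2887 (24.7%) of all genes. The median gap of the list was 1.85 at E6.5 and 0.79 at E7.5, and its median gap change was -1.22, beside -0.02 over all genes. The list was chosen with results of these data known, and no test was made of it.

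Sp5, a zinc-finger transcription factor switched on by Wnt, measured 8.09 and 8.12 in GFP+ and 4.33 and 5.08 in GFP- cells at E6.5. At E7.5 it measured 7.65 and 8.09 in GFP+ and 6.77 and 7.35 in GFP- cells, so GFP- cells came within 1 unit of GFP+ cells in each replicate. The gap change was -2.58 (SE 0.54). Evx1, a homeobox gene of the posterior streak, had gap changes of -2.30 and -2.26 in the replicates, with GFP+ values of 9.19 and 9.01 at E6.5 and 8.08 and 6.88 at E7.5. Eomes, the T-box factor upstream of Mesp1, did not follow in the probe set used, with a gap of 1.4 at E6.5 and 1.93 at E7.5. Its gap change of 0.53 (SE 0.75) was -0.19 without replicate 1 of GFP+ E7.5. A second Eomes probe set gave a gap change of -0.32, 0.58 in replicate 1 and -1.21 in replicate 2. Cer1, a secreted Nodal and BMP antagonist made by anterior visceral endoderm and definitive endoderm, had gap changes of 1.18 and 7.17. Its GFP- value at E6.5 was 5.49 in replicate 1 and 9.78 in replicate 2, and the larger gap change is in replicate 2.

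Genes of the mesenchymal transition lost their gap in 5 of 15 measured members (1.75% of all genes did), namely Snai1, Zeb2, Cdh2, Cdh11 and Fn1. In 4 of the 15 the gap change was at least 1 toward GFP- in both replicates (1.62% of all genes), and in 0 toward GFP+. By sign alone 7 members lay toward GFP-, 1 toward GFP+ and 7 were mixed. Snai1, the factor that represses E-cadherin, measured 10.83 and 11.09 in GFP+ and 7.54 and 8.12 in GFP- cells at E6.5. Its E7.5 values were 10.09 and 10.46 in GFP+ and 9.54 and 9.93 in GFP- cells. The GFP+ arrays were still the higher, and the mean gap was 0.54. The gap change was -2.59 (SE 0.48; limma adjusted p = 0.923).

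Fn1, fibronectin, the matrix on which mesoderm migrates, measured 10.89 and 10.67 in GFP+ and 7.70 and 7.5 in GFP- cells at E6.5. At E7.5 its values were 11.41 and 11.18 in GFP+ and 10.61 and 10.71 in GFP- cells. The stage difference was 3.06 in GFP- and 0.51 in GFP+ cells, with a gap change of -2.55 (SE 0.40; limma adjusted p = 0.738). Cdh11, a mesenchymal cadherin, had a gap of 3.55 at E6.5 and 0.40 at E7.5, with GFP- values of 2.76 and 3.35 at E6.5, below the filter value. A second Cdh11 probe set, with a mean level of 2.83, gave a gap change of -0.14. Cdh2, N-cadherin, had a gap of 2.67 at E6.5 and 0.31 at E7.5, and its gap change of -2.36 was -1.55 with the mean of its probe sets. Zeb2, a repressor related in role to Snail, had gap changes of -1.07 and -1.0, the second just short of the limit. The list's median gap change was -0.74, and -0.34 with no filter on low values.

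Of 13 measured Wnt targets, 6 had a gap change toward GFP- in both replicates, 0 toward GFP+ and 7 had mixed signs. In 3 it was at least 1 toward GFP- in both replicates (1.62% of all genes) and in 0 toward GFP+. The gap was lost in 4 (1.75% of all genes): Sp5, Cdx1, Axin2 and Lef1. Cdx1, a homeobox gene of the posterior embryo, measured 5.62 and 4.85 in GFP+ and 3.44 and 3.33 in GFP- cells at E6.5. These GFP- values lay below the filter value. At E7.5 values were 8.22 and 7.86 in GFP+ and 8.30 and 8.68 in GFP- cells, so the GFP- fraction was the higher in both replicates, with a gap change of -2.30 (SE 0.51). Axin2, a feedback inhibitor of the pathway, had a gap of 1.49 at E6.5 and 0.10 at E7.5, and its gap change of -1.39 was -0.73 with the mean of its probe sets. Lef1, a nuclear partner of beta-catenin, had gap changes of -0.98 and -0.50.

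The TCF/LEF core CTTTGA lay in 23 of 106 promoter windows (21.7%) of genes that lost a gap in which GFP+ had been higher. It lay in 13 of 117 windows (11.1%) of genes that lost a gap in which GFP- had been higher and in 12.1% of 12042 windows of all genes tested. Windows were the 300 bases from 250 before to 50 after each RefSeq start, both strands were searched, and the 3 sets covered 79, 85 and 9449 genes. Among the lost genes Mesp1 and Sp5, shown above, each held 2 copies within the 250 upstream bases. This was 1 of 10 motifs searched, and the shares are descriptions of the letters with no test.

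Regulators of heart and trunk mesoderm were divided. Hoxb1, a Hox gene of the posterior streak and second heart field, measured 6.98 and 6.72 in GFP+ and 3.24 and 3.80 in GFP- cells at E6.5. At E7.5 it was 9.80 and 10.14 in GFP+ and 9.58 and 9.69 in GFP- cells. Its stage difference was 3.12 in GFP+ and 6.11 in GFP- cells, with a gap change of -3.00 (SE 0.45; limma adjusted p = 0.738). The GFP- values at E6.5 lay below the filter value. Meis2, a Hox cofactor, had a gap of 3.61 at E6.5 and 0.58 at E7.5, and its gap change of -3.03 was -1.84 with the mean of its probe sets.

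Of 11 first heart field regulators 2 had a gap change of at least 1 toward GFP- in both replicates, Gata6 and Bmp7. Bmp4 was the 1 toward GFP+. The shares of all genes were 1.62% toward GFP- and 1.71% toward GFP+. By sign 6 of the 11 lay toward GFP-, 3 toward GFP+ and 2 were mixed. Bmp7, a BMP ligand, had a gap of 2.83 at E6.5 and 0.01 at E7.5, but its gap change of -2.81 was -1.10 with the mean of its probe sets. Gata6, a zinc-finger factor of mesoderm and endoderm, had gap changes of -3.59 and -1.34. Its GFP- value at E6.5 was 4.64 in replicate 1 and 7.80 in replicate 2, and the gap change without that first array was -0.89. Bmp4, a BMP ligand that patterns posterior mesoderm, had gaps of -1.53 and -2.53 at E6.5 and 0.90 and -1.40 at E7.5, so the replicates had opposite signs at E7.5. Of 13 second heart field regulators 3 had such a gap change toward GFP- (Hoxb1, Fgf10, Tbx3; 1.62% of all genes) and 0 toward GFP+. By sign 6 of the 13 lay toward GFP-, 3 toward GFP+ and 4 were mixed.

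Of 16 measured members of the paraxial and presomitic list, 4 had a gap change of at least 1 toward GFP- in both replicates. The share of all genes was 1.62%. In 1 member it was toward GFP+ (1.71% of all genes), and in 0 with a stricter filter (at least 4 of 8 arrays above 4.38). By sign 6 of the 16 lay toward GFP-, 5 toward GFP+ and 5 were mixed. Msgn1, a bHLH factor of presomitic mesoderm, measured 6.29 and 6.48 in GFP+ and 4.75 and 4.86 in GFP- cells at E6.5. At E7.5 it was 9.44 and 10.05 in GFP+ and 10.00 and 9.98 in GFP- cells, so the gap had no common sign, and the gap change was -1.82 (SE 0.44). Tbx6, a T-box factor of the same tissue, was higher in GFP+ cells at both stages in each replicate. Its gap was 2.54 at E6.5, where the GFP- mean lay below the filter value, and 1.15 at E7.5. With a gap of 0.96 at E7.5 in replicate 1, Tbx6 was among the genes that could not be placed. The list's median gap change was -0.15, and its sign turned to 0.02 with no filter and 0.05 with the mean of probe sets.

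Several genes of signalling feedback stood beside these. Spred1, an inhibitor of Ras-ERK signalling, had a gap of 2.67 at E6.5 and 0.38 at E7.5, and Fgf3, an FGF ligand of the streak, one of 2.88 and 0.15. Of 17 measured FGF pathway members these were the 2 with a gap change of at least 1 toward GFP- in both replicates. The share of all genes was 1.62%, and with the mean of probe sets there were 0 such members. Spry1, described below with the genes higher in GFP-, was the 1 toward GFP+ (1.71% of all genes). By sign 8 of the 17 lay toward GFP-, 4 toward GFP+ and 5 were mixed. Hey1, a Notch target, had a gap of 1.30 at E6.5 and -0.25 at E7.5. In the Notch list of 16 measured genes, 2 had a gap change of at least 1 toward GFP- in both replicates (1.62% of all genes). For 1 it was toward GFP+ (1.71% of all genes). By sign 6 of the 16 lay toward GFP+, 5 toward GFP- and 5 were mixed, and the median gap change was 0.16. Peg3, an imprinted zinc-finger gene, had a gap of 2.68 at E6.5 and 0.12 at E7.5, and 3 of 11 imprinted growth genes had a gap change of at least 1 toward GFP- in both replicates (1.62% of all genes) against 0 toward GFP+. By sign 6 of the 11 lay toward GFP-, 2 toward GFP+ and 3 were mixed. Dlc1 measured 11.03 and 10.95 in GFP+ and 7.38 and 7.46 in GFP- cells at E6.5, and 10.20 and 10.50 in GFP+ and 9.13 and 9.60 in GFP- cells at E7.5. Its gap change was -2.59 (SE 0.42; limma adjusted p = 0.790), and -1.70 with the mean of its probe sets.

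Nfatc1, Wwp1 and Edrf1 were among the 12 genes with the widest gap change toward GFP- in both replicates. Nfatc1, a calcium-regulated transcription factor, had a gap of 2.54 at E6.5 and -0.77 at E7.5, with gap changes of -3.72 and -2.89. Wwp1, a ubiquitin ligase, had a gap of 2.07 at E6.5 and -0.78 at E7.5. Each had further probe sets, and with their mean the gap change was -1.02 for Nfatc1, -1.44 for Wwp1 and -0.94 for Edrf1. Id1, a BMP target that blocks bHLH factors, had a gap of 1.32 at E6.5 and -1.22 at E7.5, positive in both replicates at E6.5 and negative in both at E7.5. It was not counted as reversed, since its gap at E7.5 was -0.75 in replicate 1. Of 16 measured BMP and Nodal targets, 2 had a gap change of at least 1 toward GFP- in both replicates (1.62% of all genes). For 1 it was toward GFP+ (1.71% of all genes). By sign 6 of the 16 lay toward GFP-, 5 toward GFP+ and 5 were mixed.

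Visceral endoderm genes showed the opposite side. All 20 measured members are accounted for as follows: 16 had a gap change toward GFP+ in both replicates, 0 toward GFP- in both, and 4 had mixed signs, where 24.7% of all genes lay toward GFP+. In 10 of 20 the gap change was at least 1 toward GFP+ in both replicates, against 1.71% of all genes. The median gap was -2.18 at E6.5 and -0.37 at E7.5, and the median gap change was 1.93, with 1.51 in replicate 1 and 1.76 in replicate 2. By limma with Benjamini-Hochberg adjustment 0 members passed, and 5 had an unadjusted p under 0.05 toward GFP+, against 1.33% of all genes.

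Apoa1, an apolipoprotein secreted by visceral endoderm, measured 7.42 and 9.02 in GFP- and 4.72 and 5.0 in GFP+ cells at E6.5. The E7.5 arrays gave 5.40 and 5.84 in GFP- and 5.51 and 4.98 in GFP+ cells, where the fractions overlapped. The gap change was 2.99 (SE 0.75; limma adjusted p = 1.00), and a second probe set gave 2.54. Dab2, an endocytic adaptor, had a gap of -3.34 at E6.5 and -0.63 at E7.5, and Cubn, the uptake receptor cubilin, one of -2.70 and -0.47. Ctsh, a lysosomal protease, had gap changes of 2.64 and 1.99. Ttr and Rbp4, which carry thyroid hormone and retinol, lost their gap, with gap changes of 2.11 (SE 1.01) and 2.73 (SE 1.05). Dab2, Cubn and Ctsh were not counted as lost, since their gaps at E7.5 in replicate 2 were -1.04, -1.08 and -1.29. Without replicate 2 of GFP- E6.5 the gap change was 0.93 for Ttr, 1.74 for Rbp4, 1.42 for Dab2 and 1.25 for Cubn. Spink1, a protease inhibitor singled out after its values were seen, had gap changes of 8.45 and 1.22, and its GFP+ value at E7.5 was 7.39 in replicate 1 and 3.49 in replicate 2.

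The mean level of the 20 visceral endoderm genes was 5.85 and 7.34 in GFP- E6.5 and 4.36 and 4.71 in GFP+ E6.5. It was 5.02 and 6.05 in GFP- E7.5 and 5.17 and 5.15 in GFP+ E7.5. GFP- cells at E6.5 thus stood highest in each replicate, and they stood higher in replicate 2 than in replicate 1. The streak list had means of 5.35 and 6.35 in GFP- E6.5, 6.83 and 7.02 in GFP- E7.5, and 7.35 to 7.57 in the 4 GFP+ arrays. The part of the cell makeup of the GFP- sort in the gap changes was not tested.

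**Figure D3:**
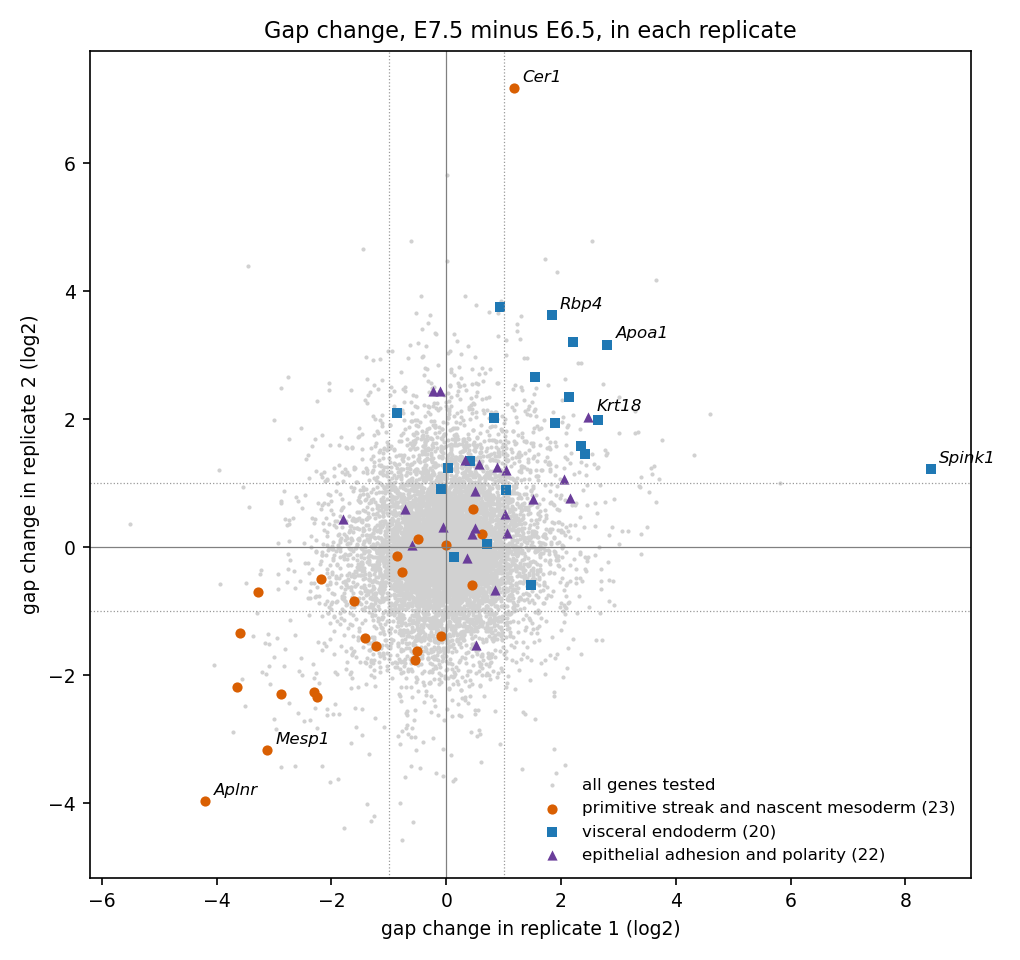
Gap change (log2) in replicate 1 on the horizontal axis and in replicate 2 on the vertical axis for 11706 genes (grey), with 23 streak and nascent mesoderm genes (orange circles), 20 visceral endoderm genes (blue squares) and 22 epithelial genes (purple triangles). Dotted lines mark 1 and -1. Of the orange points 9 lie below -1 on both axes, and 10 blue points lie above 1 on both axes. Cer1 (1.18 and 7.17) and Spink1 (8.45 and 1.22) lie far from the diagonal.

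Epithelial adhesion and polarity genes ran the same way as the visceral endoderm list with smaller values. Of 22 measured members 13 had a gap change toward GFP+ in both replicates (24.7% of all genes), 0 toward GFP- in both and 9 had mixed signs. In 3 it reached 1 in both replicates (1.71% of all genes). The median gap was -1.27 at E6.5 and -0.48 at E7.5. Krt18, a keratin of simple epithelia, measured 8.70 and 9.65 in GFP- and 6.08 and 6.78 in GFP+ cells at E6.5. At E7.5 it measured 9.44 and 9.78 in GFP- and 9.29 and 8.95 in GFP+ cells. Here the GFP+ fraction had the larger stage difference, 2.69 against 0.44 in GFP- cells, and the gap change was 2.25 (SE 0.60).

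Rab25, a vesicle-traffic GTPase of epithelia, measured 9.76 and 9.60 in GFP- and 8.30 and 8.21 in GFP+ cells at E6.5, and 7.98 and 7.5 in GFP- and 7.56 and 7.32 in GFP+ cells at E7.5. Both fractions were lower at E7.5, the GFP- fraction by more, and the gap change was 1.12 (SE 0.42). Spint1, a membrane protease inhibitor, had gap changes of 2.06 and 1.07, and Grhl2, a transcription factor of epithelial junctions, 2.16 and 0.76. Cdh1, E-cadherin itself, kept its gap, at -2.16 at E6.5 and -1.39 at E7.5. Cldn4, a tight junction claudin, kept it as well, at -2.44 at E6.5 and -2.36 at E7.5, with GFP+ values below the filter value at both stages.

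The Snail E-box CAGGTG lay in 40 of 117 promoter windows (34.2%) of the genes that lost a gap in which GFP- had been higher. It lay in 19 of 106 windows (17.9%) of those in which GFP+ had been higher and in 19.2% of all 12042 windows. Rab25 and Krt18, shown above, were among the 85 genes with a window. Of the other motifs searched, TATAAA lay in 12% of the windows of the first set and 3.77% of the second, against 7.54% of all windows, and CAGACA, a SMAD element, in 21.4% and 14.2% against 16.8%. The AP-1 motif TGANTCA lay in 9.4% and 2.83% against 5.07%. The ETS, HNF1 and HNF4 motifs (CCGGAAGT, GTTAAT and CAAAGTCC) had lower shares in both lost sets than in all windows.

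Other genes whose gap had favoured GFP- at E6.5 came from no single group. Spry1, an inhibitor of receptor tyrosine kinase signalling induced by FGF, measured 7.58 and 7.24 in GFP- and 5.28 and 5.46 in GFP+ cells at E6.5. Its E7.5 values were 5.75 and 5.66 in GFP- and 6.19 and 6.43 in GFP+ cells, so GFP+ cells were the higher in each replicate by 0.43 and 0.77. The gap change was 2.64 (SE 0.41; limma adjusted p = 0.738), the smallest p among gap changes toward GFP+. Sfrp1, a secreted Wnt antagonist, measured 5.04 and 4.86 in GFP+ cells at E6.5 and 8.45 and 8.67 at E7.5, with a gap of -2.78 at E6.5 and 0.34 at E7.5. Lbh, a transcription cofactor of limb and heart, had a gap of -2.10 at E6.5 and 0.58 at E7.5, and 2 further probe sets gave gap changes of 1.27 and 2.12. Rimkla had a gap of -2.65 at E6.5 and -0.07 at E7.5, where all 4 arrays lay below the filter value. Foxd3, a forkhead factor of the epiblast, had gap changes of 1.65 and 1.86, and was below the filter value in 3 of 4 groups. It was the 1 of 19 epiblast and pluripotency genes to reach 1 in both replicates, toward GFP+ (1.71% of all genes). That count was 3 with the mean of probe sets, 2 with quantile normalization and 0 with the stricter filter.

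In most lost genes the GFP- fraction had the larger difference between stages. Of the 101 genes that lost a gap in which GFP+ had been higher, the E7.5 minus E6.5 difference was larger in size in GFP- cells in both replicates in 66, larger in GFP+ cells in 11 and mixed in 24. Its median was 1.26 in GFP- and -0.26 in GFP+ cells. Of the 104 genes that lost a gap in which GFP- had been higher, 64 had the larger difference in GFP- cells, 18 in GFP+ cells and 22 were mixed, with medians of -1.14 (GFP-) and 0.29 (GFP+). Over all genes tested GFP- cells had the larger difference in 32.1% and GFP+ cells in 20.1%. The genes were chosen on the same arrays, so these counts describe them and test nothing. Krt18, Sfrp1 and Lbh were among those in which GFP+ cells moved further.

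**Figure D4:**
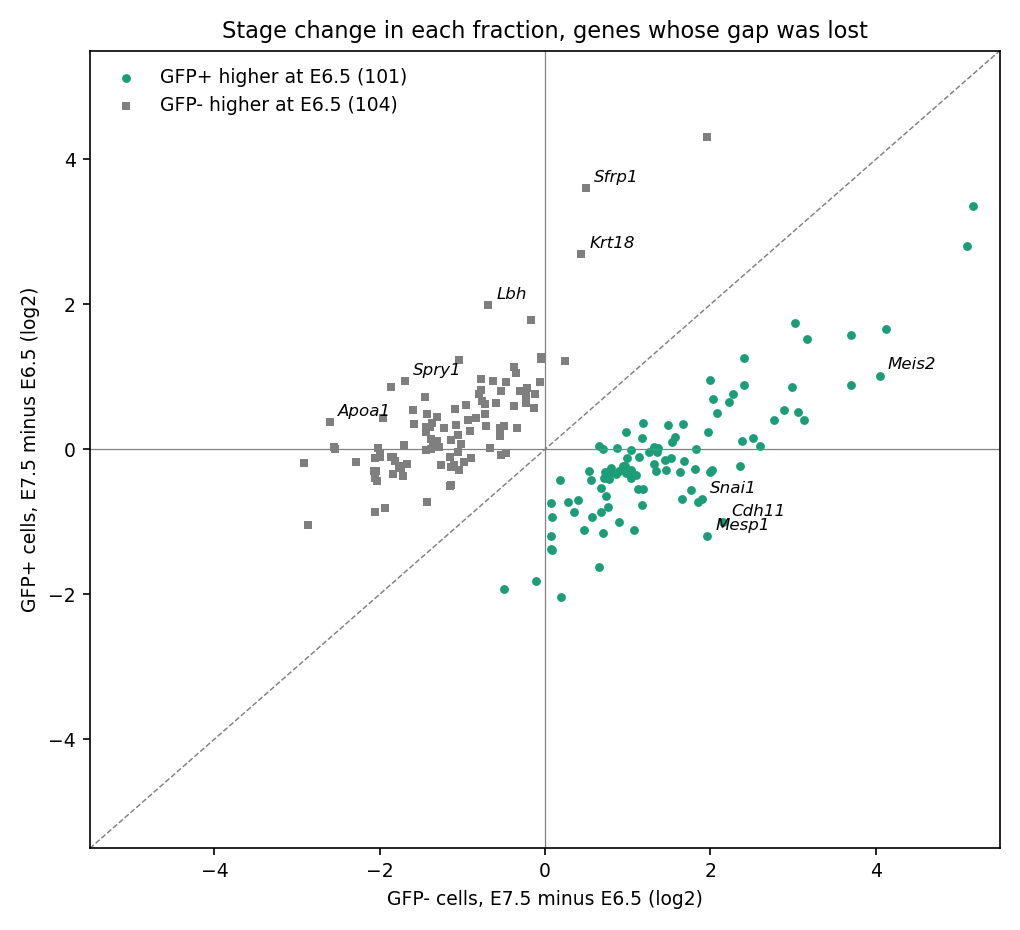
E7.5 minus E6.5 difference (log2, mean of 2 replicates) in GFP- cells on the horizontal axis and in GFP+ cells on the vertical axis, for 101 lost genes with GFP+ higher at E6.5 (green circles) and 104 with GFP- higher (grey squares). The dashed line marks equal differences. The green points spread to the right along the line of no GFP+ difference, with a median of 1.26 in GFP- cells, and the grey points spread to the left, with a median of -1.14. Sfrp1, Krt18 and Lbh are among the few grey points with a GFP+ difference of about 2 or more.

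A gap was gained by 44 genes, 21 with GFP+ higher at E7.5 (0.179%) and 23 with GFP- higher (0.196%). In 13 of the 21 the GFP+ fraction had the larger stage difference in both replicates (20.1% of all genes). Of the 23, the GFP- fraction had it in 9 (32.1% of all genes), the GFP+ fraction in 8, and 6 were mixed. The genes were chosen on the same values, so these counts test nothing. Tnnc1, the troponin C of cardiac and slow muscle, measured 4.02 and 3.59 in GFP+ and 4.29 and 3.97 in GFP- cells at E6.5, all below the filter value. At E7.5 values were 6.52 and 8.18 in GFP+ and 4.24 and 3.76 in GFP- cells, so only GFP+ cells at E7.5 were above it. The gap change was 3.67 (SE 0.77), 2.55 and 4.79 in the replicates. Of 11 measured contraction genes Tnnc1 was the 1 that reached 1 in both replicates, toward GFP+ (1.71% of all genes). It passed the filter on low values only through the GFP+ E7.5 arrays, and with the stricter filter the count was 0. By sign 6 of the 11 lay toward GFP+, 1 toward GFP- and 4 were mixed. Tnni1 and Actc1, a troponin I and the cardiac actin, had gap changes of 2.45 and 0.65, and 1.81 and 0.68.

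Meox1, a homeobox gene of somites, measured 4.93 and 7.93 in GFP+ and 3.62 and 4.98 in GFP- cells at E7.5, with all E6.5 values below the filter value. Its gap change was 2.16 (SE 1.28), and 0.66 without replicate 2 of GFP+ E7.5. Fam183b, Cfap69 and Fmn2, of which the first pair are linked to motile cilia, gained a gap with GFP+ higher. Fam183b had gap changes of 2.34 and 2.87, Cfap69 1.45 and 2.20 and Fmn2 2.11 and 1.88, and both fractions at E6.5 were below the filter value for all 3. The other probe sets of Cfap69 and Fmn2 gave between -0.09 and 0.51.

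Hbb-bh1, an embryonic beta-like globin of primitive red cells, gained a gap toward GFP-. It measured 3.33 and 3.35 in GFP+ and 3.19 and 3.16 in GFP- cells at E6.5, and 3.11 and 3.47 in GFP+ and 5.45 and 5.99 in GFP- cells at E7.5. Only GFP- cells at E7.5 were above the filter value, and the gap change was -2.59 (SE 0.44; limma adjusted p = 0.8). Of 8 measured erythroid genes Hbb-bh1 was the 1 to reach 1 toward GFP- in both replicates (1.62% of all genes). It passed the filter on low values only through the GFP- E7.5 arrays, and with the stricter filter the count was 0. Epor, the erythropoietin receptor gene, reached 1 toward GFP+ (1.71% of all genes), at 1.89 and 1.12. By sign 4 of the 8 lay toward GFP+, 1 toward GFP- and 3 were mixed. Lmo2, a cofactor of blood and endothelial progenitors, had gap changes of -1.27 and -1.14. Mmrn2, an endothelial matrix gene, had a gap of 0.58 at E6.5 and -1.26 at E7.5, and its other probe sets gave gap changes of -0.42 and 0.04. Of 15 measured endothelial and haematopoietic progenitor genes, 1 reached 1 toward GFP- in both replicates (1.62% of all genes). Another 1 did so toward GFP+ (1.71% of all genes). By sign 8 of the 15 lay toward GFP-, 1 toward GFP+ and 6 were mixed.

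Apela, which encodes Elabela, a ligand of the receptor made from Aplnr, measured 5.73 and 5.79 in GFP+ and 5.28 and 5.96 in GFP- cells at E6.5. The E7.5 arrays gave 4.68 and 5.92 in GFP+ and 6.53 and 8.60 in GFP- cells. The gap was 0.14 at E6.5 and -2.26 at E7.5, with a gap change of -2.40 (SE 1.01). It was -1.36 without replicate 2 and -3.44 without replicate 1 of GFP- E7.5. A second Apela probe set, with a mean level of 3.10, below the filter value, gave a gap change of 0.06. Bmp5, a BMP ligand, had a gap of 0.11 at E6.5 and -1.67 at E7.5, with E6.5 group means below the filter value. The patterns of receptor and ligand gene were unlike. The Aplnr gap narrowed from 5.11 to 1.02 with GFP+ still higher, and Apela went from 0.14 to a gap of -2.26 with GFP- higher. A link between them was not tested.

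A gap was kept by 31 genes, 25 with GFP- higher (0.214%) and 6 with GFP+ higher (0.0513%). Among those with GFP- higher, Utf1, a chromatin factor of pluripotent cells, measured 11 and 10.93 in GFP- and 6.13 and 8.4 in GFP+ cells at E6.5, and 8.26 and 9.29 in GFP- and 5.30 and 6.56 in GFP+ cells at E7.5. GFP- cells were higher at both stages, and both fractions were lower at E7.5. Slc7a3, an amino acid transporter gene, had a gap of -3.54 at E6.5 and -2.50 at E7.5, and Sall2, a zinc-finger gene, one of -2.23 and -1.65. Sox2, the pluripotency and neural factor, had a gap of -1.68 at E6.5 and -1.79 at E7.5, with GFP+ means below the filter value at both stages. Of 19 epiblast and pluripotency genes 4 kept a gap, 1 lost it and 1 gained it, against 0.265%, 1.75% and 0.376% of all genes. The median gap of the 19 was -0.74 at E6.5 and -0.35 at E7.5.

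The 6 genes that kept a gap with GFP+ higher were Aplnr, Frzb, Dll3, Wnt5a, Klhl6 and Adam19. Frzb, a secreted Wnt antagonist, measured 9.82 and 9.54 in GFP+ and 4.50 and 5.94 in GFP- cells at E6.5, and 9.04 and 8.67 in GFP+ and 7.78 and 6.92 in GFP- cells at E7.5. Its gap was 4.46 at E6.5 and 1.51 at E7.5, so a kept gap could still be much narrower. Dll3, a Notch ligand of presomitic mesoderm, had a gap of 3.81 at E6.5 and 1.20 at E7.5, and Wnt5a, a ligand that guides cell movement, one of 3.20 and 1.20. A second Wnt5a probe set gave a gap change of -0.14 (0.74 and -1.02 in the replicates), against -2.0 for the one used. Klhl6 had a gap of 3.14 at E6.5 and 1.77 at E7.5, and Adam19, a metalloprotease gene, one of 2.26 and 1.33.

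Only Tmem191c reversed its gap by the limit used. It measured 5.09 and 6.28 in GFP+ and 7.71 and 7.6 in GFP- cells at E6.5, and 6.55 and 6.51 in GFP+ and 5.52 and 3.66 in GFP- cells at E7.5. The gap was -1.97 at E6.5 and 1.94 at E7.5, with a gap change of 3.91 (SE 0.90). The 3 other probe sets of Tmem191c gave 0.67, 2.62 and 0.67, and the mean of all of them gave 1.97. With that mean, and with quantile normalization across the arrays, 0 genes reversed.

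Glycolysis (17 measured genes), oxidative phosphorylation (21), cell cycle (19) and stress and immediate early genes (17) had 0 members with a gap change of at least 1 in both replicates in either direction. With 1.71% of all genes toward GFP+ and 1.62% toward GFP-, these counts of 0 are near the share over all genes. Their median gap changes were -0.07, 0.01, -0.04 and -0.02. Extraembryonic ectoderm genes had 1 of 19 such members, toward GFP+, and a median gap change of -0.22. Of 14 measured Hox genes 1 reached 1 toward GFP- (Hoxb1) and 1 toward GFP+. The latter, Hoxb3, had gap changes of 1.08 and 1.10, and with the mean of its probe sets 0.18.

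**Figure D5:**
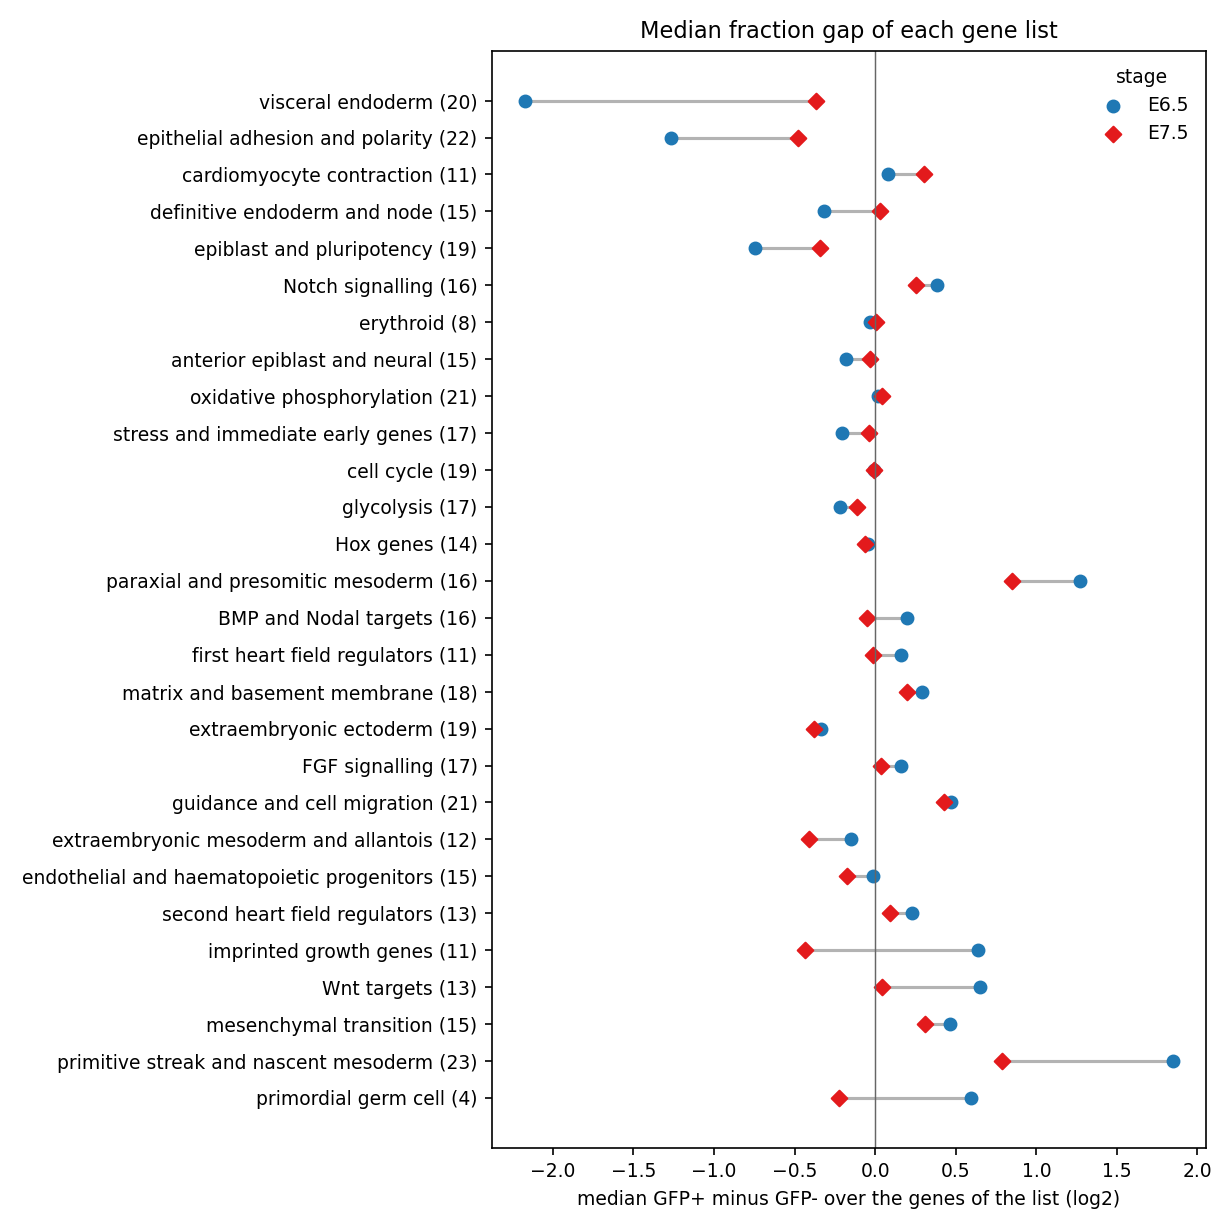
Median fraction gap (GFP+ minus GFP-, log2, horizontal axis) of each of 28 gene lists at E6.5 (blue circles) and E7.5 (red diamonds), with the number of measured genes in brackets and the lists ordered by their median gap change. The visceral endoderm list moves from -2.18 to -0.37 and the streak list from 1.85 to 0.79. The cell cycle and oxidative phosphorylation lists lie near 0 at both stages.

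Within each stage, limma with Benjamini-Hochberg adjustment called 9 genes between the fractions at E6.5 (0.0769%) and 0 at E7.5 (0%). The 9 were Aplnr, Mesp1, Snai1, Fn1, Hoxb1, Meis2, Dlc1 and Sp5, with GFP+ higher, and Dtx1, a Notch regulator, with GFP- higher and gaps of -3.24 at E6.5 and -1.51 at E7.5. The count was 30 with the replicate block and 118 with the random block. It was 0 when any of the 4 E6.5 arrays was left out and 1 when any of the 4 E7.5 arrays was left out. At E7.5 it was 0 under every alternative run. A gene called at E6.5 and not at E7.5 is not thereby shown to differ between the stages, and the test of that difference is the gap change, which called 0 genes in the same fit.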

How the data were processed

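Arrays were Affymetrix mouse whole-genome PM array strips, 2 for each of 4 groups. The deposited values are log2 expression values that the authors computed by RMA for each probe set, per the submitters' processing notes; the version and genome build are not given in the sources used here. Of 45141 probe sets, 104 were controls, 28898 had 1 gene symbol, 551 had several and 15588 had none. Probe sets with at least 2 of 8 arrays above 4.38 (the median of all values) were kept, and each gene was read from its probe set of highest mean. Gap changes were fitted in limma 3.58.1 (R 4.3.3) as the interaction of fraction and stage, with no block. Variances were moderated, with Benjamini-Hochberg adjustment over 11706 genes. The offset between replicate numbers cancels within a gap but counts as spread in this fit and its SE values. The scripts were tested on 1 simulated set of 11706 genes. In it 100 genes had a log2 change of 2 in size and 100 others a change of 4, all fitted and adjusted together. The fit with no block called 1 of the 100 genes at a change of 2 and 33 of the 100 at a change of 4. Of the unchanged genes 1.63% had an unadjusted p under 0.05 in that limma fit, and 0 were called. With the replicate block 35 were called at a change of 2 and 74 at a change of 4. In that fit 5.43% of the unchanged genes had such a p, and 3 were called. The series was repeated in 2 biological samples, and deviations of arrays with the same replicate number from their group means correlated at 0.401 to 0.532 for all 6 pairs of groups, so the number was also fitted as a block. Nothing says that arrays came from separate embryos, so p-values measure the spread between these samples, which may be partly technical. Named genes were those with the widest gap change in both replicates, overall (12 in each direction), per pattern (6) and per list (up to 4), those called within a stage, and Mesp1. Zeb2, Grhl2, Lef1, Ttr, Rbp4, Spink1, Cdh1, Sox2, Actc1, Eomes and genes at the limit were added after their values were seen. The genes and lists were chosen with earlier results of these data known. Alternatives were other filters, the mean of probe sets, quantile normalization, centring, both blocks, other gap limits and leaving out arrays.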

Additional observations from a re-analysis of the deposited data

How the results depend on the processing

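With the replicate number as a block 0 genes passed the adjusted p in limma and 761 had an unadjusted p under 0.05, against 317 without it; as a random block 1 gene passed. Leaving out each of the 8 arrays in turn gave 0 to 0 genes. With a limit of 1.5-fold for a gap, 339 genes lost it, 142 gained, 125 kept and 13 reversed it, and with 4-fold the counts were 56, 3, 2 and 0. The mean of probe sets and quantile normalization left 0 reversed genes. The median change in replicate 2 of genes chosen at E6.5 in replicate 1 was -1.15 with the mean of probe sets. The gap change of Eomes was -0.19 without GFP+ E7.5 replicate 1 and 1.25 without replicate 2 of that group. Leaving out 1 array also moved by over 1.5 times the gap changes of Tbx3, Fgf10, Tbx6, Ctsh, Actc1, Tnni1, Fam183b, Lmo2, Cer1, Bmp4, Epor, Spink1, Zeb2, Grhl2 and Lef1, with no change of sign. In each case the cause was not tested. With 2 arrays a group and amplified RNA of few cells, genes near the filter value are the least certain.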

Other observations

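Probe sets that name no single gene were left out of the comparisons. Of 7363 kept probe sets with no symbol, 124 (1.68%) had a gap change of at least 1 toward GFP+ in both replicates and 155 (2.11%) toward GFP-. Of 396 kept probe sets with several symbols, 8 (2.02%) had one toward GFP+ and 7 (1.77%) toward GFP-.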
